A study of Mus musculus with 4 samples.

Results

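Expression of 8 genes that set the balance between phosphate and pyrophosphate in bone was described in Cxcl12-creER-marked marrow cells at 7 days after bone marrow ablation. The genes were taken by symbol, Alpl, Phospho1, Smpd3, Phex, Enpp1, Ank, Slc20a1 and Slc20a2, and each was found once among the 28006 features of the single-cell count matrices. The 4 libraries came from femurs of Cxcl12-iCreER; R26R(tdTomato/+) mice that received tamoxifen 7 days before ablation, and tdTomato+ cells were sorted for droplet sequencing. ABL is the femur whose marrow was mechanically ablated, and CONT is the contralateral femur of animals that carried the same alleles and received the same tamoxifen, so CONT is not tissue of an unoperated mouse. Each group has replicate 1 (10X Chromium version 2 chemistry) and replicate 2 (version 3). The creER is driven by a Cxcl12 bacterial artificial chromosome in a single transgenic line, the distal growth plates and proximal ends of the bones were removed, and the cells of several mice were pooled in replicate 1.

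Mineral forms where phosphate is released and pyrophosphate, which blocks crystal growth, is removed. Alpl encodes tissue-nonspecific alkaline phosphatase, which hydrolyses pyrophosphate at the cell surface and on matrix vesicles, and Phospho1 encodes a phosphatase that frees phosphate from phosphocholine inside those vesicles. Smpd3 encodes neutral sphingomyelinase 2, a source of phosphocholine in mineralizing cells, and Phex encodes a membrane endopeptidase of osteoblasts and osteocytes whose loss causes X-linked hypophosphatemia. Enpp1 generates extracellular pyrophosphate from ATP, Ank brings ATP and pyrophosphate out of the cell, and Slc20a1 and Slc20a2 encode the sodium-phosphate cotransporters Pit1 and Pit2.

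The stretches upstream of Alpl, Phex and Enpp1 are shown because Alpl and Phex differed in opposite directions between CONT and ABL in reticular-like cells and Enpp1 leaned the way of Phex. RefSeq starts on GRCm38.p6 were matched for 6 of the 8 genes (not Smpd3 or Slc20a2), with 2 starts for Alpl. Each sequence is the 250 bases before a start, read 5′ to 3′ on the strand of the gene, and capitals mark every match, on either strand, to the letters GGGCGG (GC box), TGTGGT (RUNX core), CTTTGA (TCF/LEF core) or TATAAA.
Alpl, first start, chr4:137796385-137796634, minus strand: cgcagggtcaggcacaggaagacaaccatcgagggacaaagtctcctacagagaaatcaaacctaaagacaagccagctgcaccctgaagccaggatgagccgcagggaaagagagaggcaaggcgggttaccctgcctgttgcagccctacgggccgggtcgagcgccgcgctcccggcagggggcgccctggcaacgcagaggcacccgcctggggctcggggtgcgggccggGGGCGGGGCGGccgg
Alpl, second start, chr4:137766476-137766725, minus strand: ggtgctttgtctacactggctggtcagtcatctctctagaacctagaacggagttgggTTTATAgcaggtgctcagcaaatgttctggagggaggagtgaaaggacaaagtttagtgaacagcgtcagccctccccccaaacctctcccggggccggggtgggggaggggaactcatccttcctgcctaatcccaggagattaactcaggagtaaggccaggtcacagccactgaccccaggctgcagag
Phex, chrX:157415287-157415536, minus strand: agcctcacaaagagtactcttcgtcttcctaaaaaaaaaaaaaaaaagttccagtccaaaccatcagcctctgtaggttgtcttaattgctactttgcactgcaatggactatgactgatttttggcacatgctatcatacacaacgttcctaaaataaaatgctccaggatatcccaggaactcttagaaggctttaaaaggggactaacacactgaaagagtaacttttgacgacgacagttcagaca
Enpp1, chr10:24712160-24712409, minus strand: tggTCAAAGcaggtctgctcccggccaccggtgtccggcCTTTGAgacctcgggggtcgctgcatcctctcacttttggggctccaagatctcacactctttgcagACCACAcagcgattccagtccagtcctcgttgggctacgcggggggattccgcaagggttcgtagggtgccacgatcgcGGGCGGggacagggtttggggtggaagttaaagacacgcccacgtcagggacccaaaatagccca
The first Alpl stretch held 2 overlapping GC boxes and had a GC content of 68.4%, higher than 88.4% of the 32851 stretches of the same length in the table, of which 32.7% held a GC box. The second Alpl stretch held a single match, to TATAAA on the opposite strand, a word present in 12.4% of all stretches. The Phex stretch held none of the 4 words and had a GC content of 39.2%, with 10.3% of stretches lower. The Enpp1 stretch held 1 GC box, 1 RUNX core and 2 TCF/LEF cores. RUNX and TCF/LEF cores were present in 14.05% and 13.8% of all stretches, so a match is a description of letters and not of a bound site.

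In GENCODE M21 (GRCm38) all 8 are protein-coding genes. Alpl lies on the minus strand of chromosome 4 (137741733 to 137796384), Phex on the minus strand of chromosome X (157162075 to 157415312) and Enpp1 on the minus strand of chromosome 10 (24637914 to 24712159). Smpd3 lies on the minus strand of chromosome 8 (106252548 to 106337988) and Slc20a2 on its plus strand (22476788 to 22569612). Phospho1 is on chromosome 11 (95824499 to 95832140), Ank on chromosome 15 (27466677 to 27594909) and Slc20a1 on chromosome 2 (129198764 to 129211616), all on the plus strand. Of these, only Phospho1 overlaps another protein-coding gene on its own strand (Zfp652).

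The libraries held 22889380 to 44784072 UMIs and 1459 to 3433 cells after filtering, with medians of 5714 and 7338 UMIs per cell in replicate 1 and 12895.5 and 12283 in replicate 2 (CONT, then ABL). Mesenchymal cells numbered 1347 and 679 in replicate 1 and 2026 and 1808 in replicate 2, and the rest were mostly blood cells. Of those of replicate 1, 54 and 39 cells lay in unnamed clusters, of which 35 and 11 formed a cluster led by B cell genes such as Cd79b and Jchain. Clusters were named from fixed marker lists, without the 8 genes taking part in the clustering. Levels are UMIs of a gene per 1000000 UMIs of the class (CPM). Reticular-like cells had 13965 to 17132 CPM of Cxcl12 in the 4 libraries, and osteoblast-like cells had 34241 to 88026 CPM of Bglap where the class was found. The labelled cell type was therefore present in every library, although reticular-like cells were 87.8% and 61.0% of the mesenchyme in CONT and ABL for replicate 1, against 98.1% and 19.3% for replicate 2. Libraries shared at most 5 cell barcodes. Xist RNA was found in 50.6%, 81.3% and 71.7% of mesenchymal cells of CONT replicate 1, ABL replicate 1 and CONT replicate 2 but in 0.0553% of those of ABL replicate 2, so sex and ablation cannot be told apart between the libraries of replicate 2. Most mesenchymal cells of that CONT library therefore came from other animals than the cells of its ABL library, and contralateral is there only the word of the labels. Values are also given for cells with a Y-linked and no Xist UMI (male cells below). Nothing in the labels ties a replicate to separate cultures or animals, so p-values refer to these 4 libraries alone. With 1 residual degree of freedom, the edgeR test used below pools the spread between libraries over genes. A small p-value therefore does not measure how closely the libraries repeated for that gene.

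The classes differed in which step of the pathway they carried. In replicate 1, Alpl and Slc20a2 RNA were highest in pre-osteoblast-like cells. With this clustering that class was found in replicate 1 alone, but in all 4 libraries with 3 others (given below). In ABL replicate 2, Alpl was highest in chondrocyte-like cells. Smpd3 was highest in osteoblast-like and chondrocyte-like cells, Phex was shared by osteoblast-like and reticular-like cells, and Enpp1 and Ank were highest in classes of ABL libraries. Classes are clusters of the same cells, so these levels are described without a test. Intervals are exact Poisson intervals at 95% and cover counting error only, and a UMI count does not depend on transcript length.

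**Figure D1:**
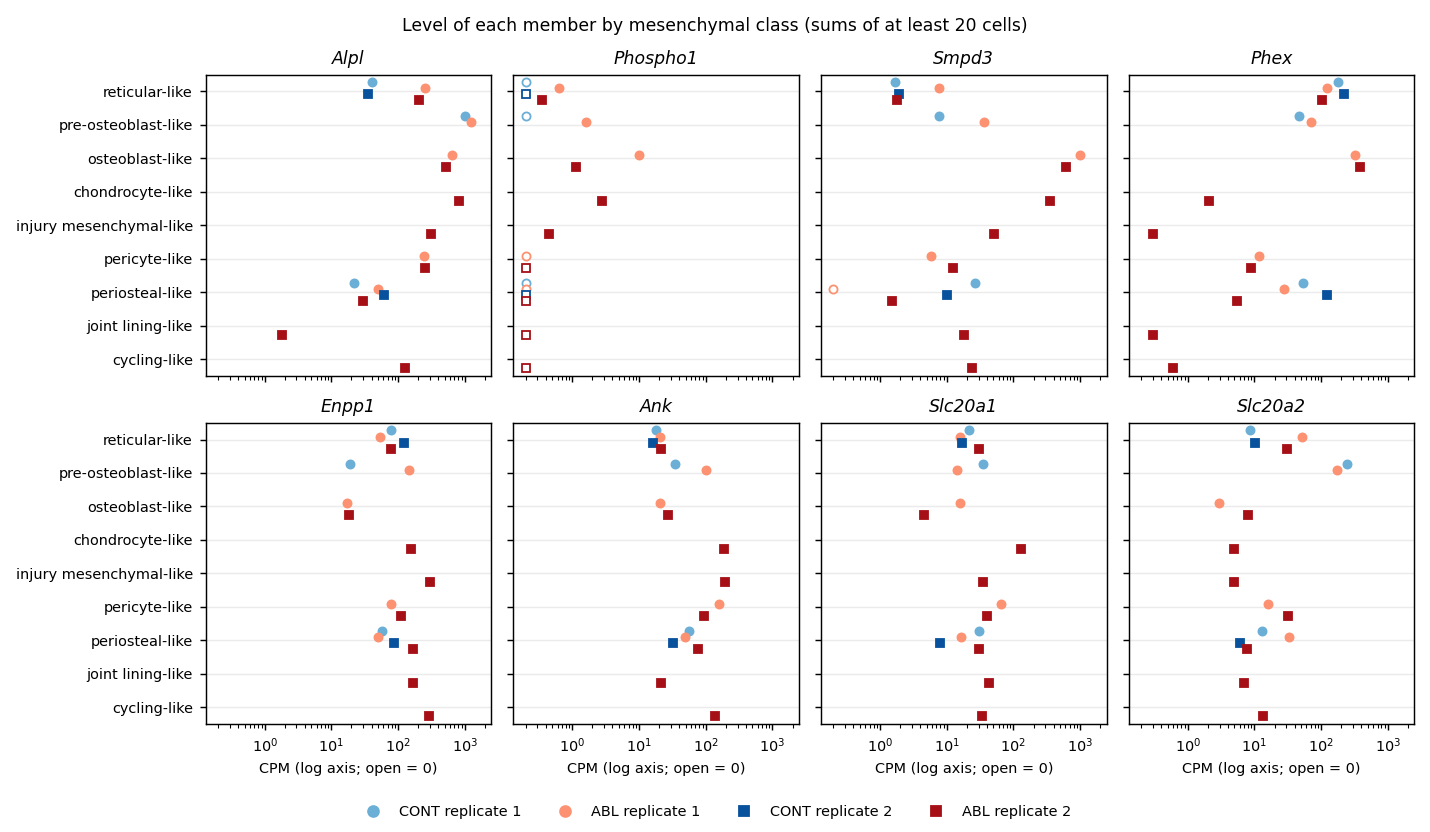
Level of the 8 genes in each mesenchymal class, in CPM on a log axis, with 1 point per library for every class with at least 20 cells. Open symbols mark classes with no UMI of the gene. Alpl reaches 1253 CPM in pre-osteoblast-like cells, and Smpd3 exceeds 300 CPM only in the osteoblast-like and chondrocyte-like sums shown.

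Among the phosphatases, Alpl stood at 1005 CPM (887 to 1135) in the 42 pre-osteoblast-like cells of CONT replicate 1 and at 1253 CPM (1167 to 1343) in the 79 of ABL replicate 1. Osteoblast-like cells had 668, 645 and 521 CPM in CONT replicate 1 (9 cells), ABL replicate 1 (58 cells) and ABL replicate 2 (48 cells). Chondrocyte-like cells had 604, 742.5 and 816 CPM in the same libraries (8, 15 and 75 cells). In the same libraries reticular-like cells had 40.4 CPM in CONT replicate 1, 249.6 CPM in ABL replicate 1 and 203 CPM in ABL replicate 2, below each of the 3 classes. Injury mesenchymal-like cells, marked by Tnn and Cthrc1, were 431 cells of ABL replicate 2 and had 317 CPM (303 to 330) there, and the 1 cell of CONT replicate 2 in this class had no UMI of Tnn. Clusters of replicate 1 also took this name under 6 of the alternatives, with 50 and 28 cells under other rounding of the arithmetic, 132 with markers left out of the clustering and 134 with no margin in naming, so the lack of the class in replicate 1 depends on the clustering. Joint lining-like cells, named by Prg4 and found in ABL replicate 2 alone, were the low end with 1.84 CPM (0.675 to 4.01), at the level of myeloid cells of the same library (4.57 CPM). Phospho1 was close to undetected: 7 UMIs in osteoblast-like cells of ABL replicate 1 gave 10.1 CPM (4.08 to 20.9), 4 UMIs in chondrocyte-like cells of ABL replicate 2 gave 2.78 CPM, and no mesenchymal class of a CONT library held a single UMI. In reticular-like cells of CONT replicate 2 the floor of 3 counts stands at 0.114 CPM, so a lower level there was not detectable at this depth.

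Smpd3 had its highest levels in osteoblast-like and chondrocyte-like cells. Osteoblast-like cells had 469.6 CPM (343 to 628) in CONT replicate 1, 1002 CPM (929 to 1080) in ABL replicate 1 and 604 CPM (553 to 658) in ABL replicate 2. Chondrocyte-like cells had 536, 763 and 351 CPM in those libraries. Injury mesenchymal-like cells of ABL replicate 2 had 50.4 CPM (45.2 to 56.1). Pre-osteoblast-like cells, in contrast, had only 7.73 CPM in CONT and 36.3 CPM in ABL of replicate 1, although their Alpl was the highest there. Alpl and Smpd3 thus peaked in different classes in replicate 1. After thinning every cell to 2000 UMIs, Smpd3 was found in 69.0% and 66.7% of osteoblast-like cells of ABL replicates 1 and 2 and in 0.483% and 0.573% of reticular-like cells.

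Phex followed neither of these patterns. It stood at 188, 322 and 389 CPM in osteoblast-like cells of CONT replicate 1, ABL replicate 1 and ABL replicate 2, but at 179.5 CPM (169 to 191) and 223 CPM (218 to 229) in reticular-like cells of CONT replicates 1 and 2, where 27.3% and 29.4% of thinned cells held a UMI. Pre-osteoblast-like cells had less, 46.4 and 69.5 CPM in CONT and ABL, both from replicate 1. Chondrocyte-like, injury mesenchymal-like, joint lining-like and cycling-like cells of ABL replicate 2 had 2.08, 0.298, 0.307 and 0.606 CPM, at or below the 1.93 CPM of blood cells in that library apart from the first, whose interval (0.429 to 6.09) covers it. Periosteal-like and pericyte-like cells of that library had 5.41 and 8.99 CPM, the latter with low pericyte markers (given below). They lay between these classes and the 102 and 389 CPM of its reticular-like and osteoblast-like cells. The level of Phex therefore differed widely between mesenchymal classes within a single library. Blood cells of CONT replicates 1 and 2 had 7.53 and 18.04 CPM, with 7283 and 14600.5 median UMIs per cell against 4526.5 and 12747 in reticular-like cells.

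The pyrophosphate genes were high in other places. Enpp1 stood at 304 CPM (291 to 318) in injury mesenchymal-like and 289.6 CPM (264 to 317) in cycling-like cells of ABL replicate 2, which overlap within counting error. Joint lining-like and periosteal-like cells of that library had 165 and 166 CPM, and osteoblast-like cells only 18.4 CPM (10.5 to 29.9). Reticular-like cells lay between, at 78.5 and 122 CPM in CONT replicates 1 and 2. Ank had 195.5 CPM (185 to 206) in injury mesenchymal-like and 189.5 CPM (168 to 213) in chondrocyte-like cells of ABL replicate 2, again overlapping. It had 160.4 CPM (132 to 193) in the 50 cells of ABL replicate 1 named pericyte-like, whose pericyte markers were low (given below). Its level in osteoblast-like cells was 20.3 and 27.6 CPM in ABL replicates 1 and 2, close to reticular-like cells of the same libraries (20.8 and 21.3 CPM). Outside the mesenchyme, osteoclasts had 76.6 and 71.2 CPM of Ank in ABL replicates 1 and 2.

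Of the phosphate transporters, Slc20a2 marked pre-osteoblast-like cells, with 247 CPM (190.5 to 316) in CONT and 171 CPM (140 to 206) in ABL, both from replicate 1, with 33.3% and 34.2% of thinned cells holding a UMI. Osteoblast-like cells of ABL replicates 1 and 2 had 2.897 and 8.05 CPM. Slc20a1 was spread more evenly. Its highest sum was 129.8 CPM (112 to 150) in chondrocyte-like cells of ABL replicate 2, pericyte-like cells had 64.1 CPM in ABL replicate 1 (50 cells), and reticular-like cells ranged from 16.1 to 31.0 CPM over the 4 libraries. Erythroid cells had 30.1 to 75.3 CPM of Slc20a1 and endothelial cells 22.3 to 105 CPM, so this transporter was not a mesenchymal gene in these libraries.

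**Figure D2:**
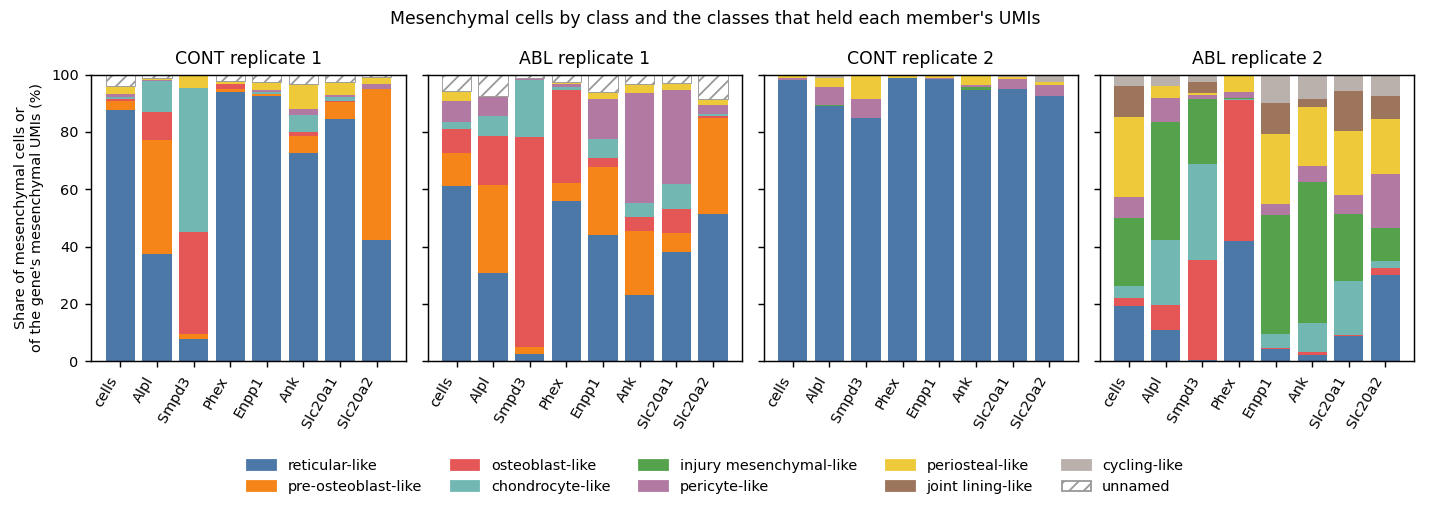
Composition of the mesenchymal cells of each library by class (first bar, % of cells) and the classes that held the mesenchymal UMIs of each gene (other bars, % of UMIs), with unnamed clusters hatched and Phospho1 left out for its low counts. In CONT replicate 2 reticular-like cells hold at least 84.7% of the UMIs of each gene shown, and in ABL replicate 2 at most 41.9%. The shares leave out an unnamed cluster of 27 cells of CONT replicate 2. It held 164 CPM of Smpd3, against 2.17 CPM over the mesenchymal cells counted, so the share of this gene depends on leaving it out.

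The classes that held the UMIs of a gene differed between libraries. In CONT replicate 1, pre-osteoblast-like cells were 3.12% of mesenchymal cells but held 39.9% of Alpl UMIs and 52.9% of Slc20a2 UMIs. In ABL replicate 2, injury mesenchymal-like cells held 41.0% of Alpl, 41.6% of Enpp1 and 49.0% of Ank UMIs with 23.8% of the cells. Osteoblast-like cells of that library, 2.65% of the cells, held 49.2% of Phex and 34.9% of Smpd3 UMIs, with a further 33.6% of Smpd3 in chondrocyte-like and 22.5% in injury mesenchymal-like cells. CONT replicate 1 and ABL replicate 2 also differ in replicate and chemistry, so these shares do not compare CONT with ABL. The stated shares are of counted UMIs, in which fewer cells of a class and less RNA per cell cannot be told apart.

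Within reticular-like cells, Alpl and Slc20a2 were higher and Phex was lower in ABL, and the other 3 genes with enough counts did not pass the test. In the first pair of libraries Alpl was 40.4 CPM (CONT) and 249.6 CPM (ABL), and in the second pair 34.9 and 203 CPM. Both ABL libraries lay above both CONT libraries. The fold change was 5.58 (log2 2.48 ± 0.28 SE, adjusted p = 4.44e-16, edgeR quasi-likelihood test with replicate as a block, n = 2 per group). Slc20a2 was 8.48 and 52.2 CPM in replicate 1 and 10.1 and 31.0 CPM in replicate 2, again without overlap, a 3.97-fold rise (log2 1.99 ± 0.26 SE, adjusted p = 1.16e-11 by the same edgeR test). Phex was 179.5 and 121.5 CPM in replicate 1 and 223 and 102.5 CPM in replicate 2, a 1.93-fold fall (log2 -0.95 ± 0.29 SE, edgeR adjusted p = 0.0254) that was lost under several alternatives given below. In all, 2 of the 6 members tested were higher and 1 was lower, in a fit that called 2.44% of 11483 genes higher and 2.17% lower, and their median log2 fold change was 0.18 against -0.01 for all genes. The replicates went the same way in 58.3% of all genes tested, and the share of genes without overlap between the groups was not counted. Thinned to 2000 UMIs, cells with an Alpl UMI rose in share from 6.85% to 30.9% in replicate 1 and from 5.79% to 23.8% in replicate 2.

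**Figure D3:**
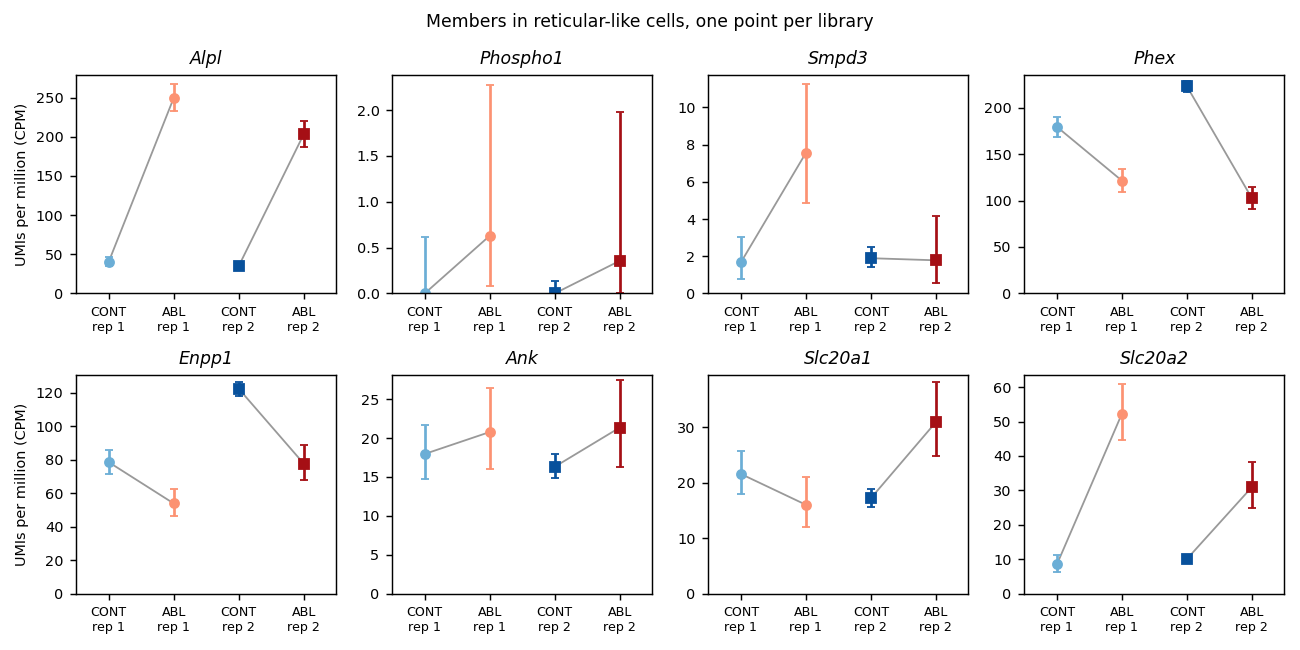
Level of each gene in CPM in the reticular-like cells of the 4 libraries, with 95% Poisson intervals and grey lines joining CONT and ABL of a replicate. Alpl and Slc20a2 are higher and Phex and Enpp1 lower in ABL in both replicates, whereas Slc20a1 goes opposite ways.

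Enpp1 and Ank leaned in the same direction in both replicates without passing the test. Enpp1 was 78.5 and 53.8 CPM (CONT, ABL) in the first replicate, against 122 and 77.6 CPM in the second (log2 -0.70 ± 0.25 SE, edgeR adjusted p = 0.0836). Ank was 17.95 and 20.8 CPM, then 16.3 and 21.3 CPM (log2 0.20 ± 0.27 SE, edgeR adjusted p = 0.831). Slc20a1 was 21.6 and 16.1 CPM in replicate 1 but 17.2 and 31.0 CPM in replicate 2, so the replicates disagreed in sign and the fitted log2 value of 0.16 is an average of opposite changes. Smpd3 (5 to 50 UMIs a library) and Phospho1 (0 to 2 UMIs) fell below the filter on low counts: Smpd3 was 1.66 and 7.55 CPM in replicate 1 and 1.89 and 1.78 CPM in replicate 2.

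RNA free in the droplets and markers of osteoblasts moved with Alpl. Empty droplets held 30.4 and 37.7 CPM of Alpl in CONT replicates 1 and 2 and 217 and 219 CPM in ABL, so their profile was about as rich in Alpl as the ABL reticular-like cells themselves. Erythroid cells held 2.02 and 0 CPM in CONT and 18.03 and 5.58 CPM in ABL, well under the reticular-like values. For Slc20a2 the empty droplets held 8.99 and 5.64 CPM in CONT and 28.6 and 8.004 CPM in ABL, and for Phex 86.4 and 118 CPM in CONT and 86.1 and 14.4 CPM in ABL. From blood-cell genes, free RNA was estimated at 12.1% and 16.3% of the UMIs of reticular-like cells for CONT and ABL of replicate 1, then at 1.57% and 11.8% for replicate 2. After its subtraction the log2 fold changes were 2.47 for Alpl, 2.11 for Slc20a2 and -0.88 for Phex. All 6 markers of the osteoblast list were detected in reticular-like cells of every library. Their sum was 453 CPM (CONT) and 2907 CPM (ABL) in replicate 1, then 203 and 2347 CPM in replicate 2. The test called 4 of 6, Bglap, Bglap2, Bglap3 and Col1a1. In CONT replicate 2, Bglap was found in 0% of thinned cells with an Alpl UMI and 0.214% of those without. It could thus pass the filter on low counts through ABL, and the count of 4 of 6 is not read as a result. The pre-osteoblast list went from 1532 to 3745 CPM and from 1707 to 3308 CPM, with 5 of 7 past the test. The sum of the reticular list was 29073 and 27201 CPM, then 32362 and 27608 CPM. Markers of other classes moved as well. The chondrocyte list was 35.7 and 147.9 CPM, then 8.21 and 103.9 CPM, with 4 of 4 tested genes higher in ABL. Its 7 genes together made up the 8.21 CPM of CONT replicate 2, so tested genes could pass the filter on low counts through ABL. The count of 4 is therefore not read as a result. The injury mesenchymal list was 963 and 2278 CPM, then 940 and 1719 CPM, with 3 of 4 tested genes higher. The pericyte list was 110.6 and 134.4 CPM, then 127.3 and 204.2 CPM, with 2 of 4 tested genes higher and 1 lower. In the joint lining list 1 of 4 tested genes was higher and 2 were lower. A single gene was called higher in each of the periosteal, cycling and osteoclast lists, and lower in each of the endothelial, myeloid and lymphocyte lists. Of the 8 reticular markers, Lepr was lower in ABL and none was higher. The part of these markers in the rise of Alpl and Slc20a2 was not tested.

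In male cells the 3 calls of reticular-like cells kept their direction, but only Alpl still passed. These cells are named by counted UMIs alone, which low depth can hide and free RNA can add. The part of sex in the differences was not tested. In reticular-like cells with a Y-linked UMI and no Xist (302, 43, 489 and 221 cells for CONT, then ABL, by replicate), the log2 fold change was 2.65 for Alpl (edgeR adjusted p = 0.0219), 2.02 for Slc20a2 (edgeR adjusted p = 0.0851) and -1.35 for Phex, which is X-linked (edgeR adjusted p = 0.364). Phex also missed the threshold after subtraction of free RNA (edgeR adjusted p = 0.0510), without TMM (edgeR adjusted p = 0.0518), without integration of the libraries (edgeR adjusted p = 0.0980) and in DESeq2 (adjusted p = 0.0685). Without the replicate block the edgeR test called 0 of the 11483 genes (333 had an unadjusted p under 0.05), and Alpl had an adjusted p of 0.994 at a log2 fold change of 2.48. DESeq2 with the block called 83 genes higher and 67 lower. A permutation of 2 against 2 libraries cannot give an exact two-sided p below 0.333, so none is given for single genes.

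**Figure D4:**
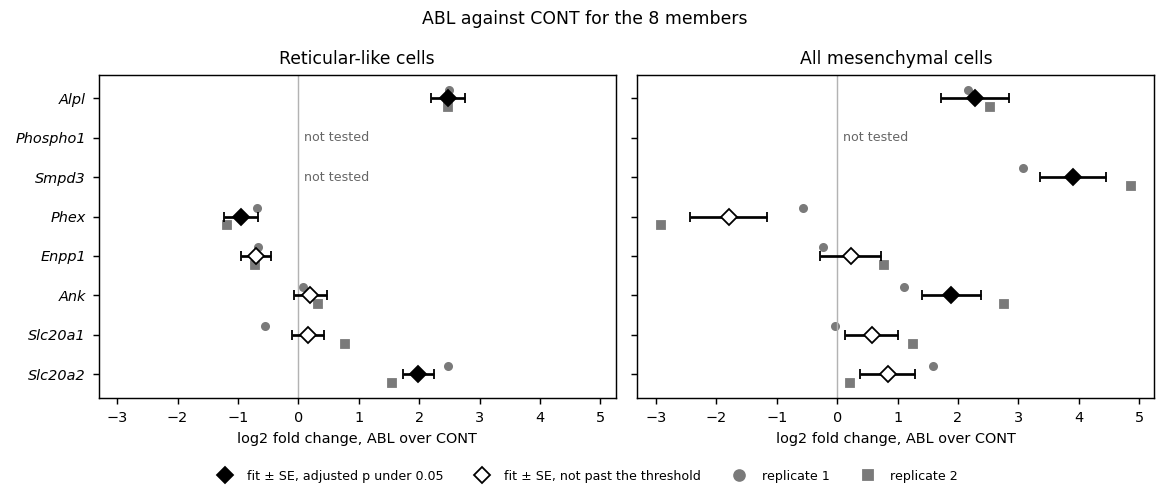
Log2 fold change of ABL over CONT in reticular-like cells and in all mesenchymal cells. Diamonds are the edgeR estimate ± SE, filled where the adjusted p is under 0.05, and grey points are the 2 replicates. In reticular-like cells both replicates of Alpl lie near 2.5, and in all mesenchymal cells the replicates of Phex lie at -0.56 and -2.92.

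The direction of the 3 calls was shared by the reticular-like sub-clusters. The class had 4 sub-clusters in replicate 1 and 5 in replicate 2 with at least 20 cells in both libraries, and Alpl was higher in ABL in 9 of 9, Slc20a2 in 9 of 9 and Phex in 0 of 9. Alpl in CONT ranged from 29.3 to 56.9 CPM over the sub-clusters of replicate 1 and from 24.3 to 81.1 CPM over those of replicate 2. In ABL it ranged from 236.7 to 309 CPM in replicate 1 and more widely, from 55.0 to 630.8 CPM, in replicate 2, where the highest sub-cluster had 35 ABL cells. Enpp1 was higher in ABL in 0 of 9 and Ank in 8 of 9. Slc20a1 was higher in 2 of 4 in replicate 1 and in 5 of 5 in replicate 2. Sub-clusters of a library share that library and its free RNA, and are not replicates. In replicate 2, sub-clusters 1 and 14 went only from 24.3 to 55.0 and from 31.0 to 56.2 CPM of Alpl. Free RNA of ABL replicate 2 held 219 CPM of Alpl and was estimated at 11.8% of the UMIs of its reticular-like cells. Its part in the values of the sub-clusters was not tested.

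**Figure D5:**
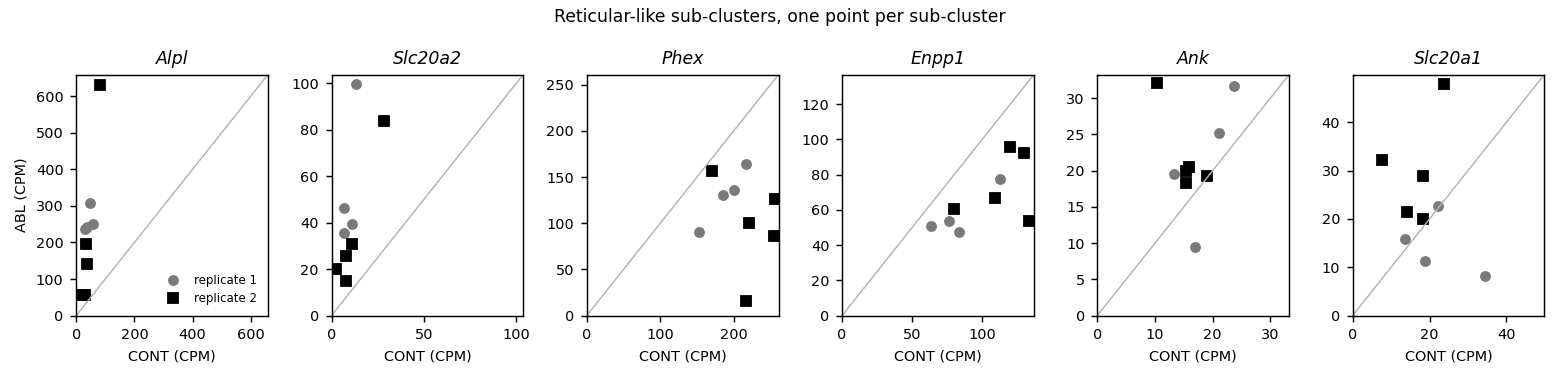
Level of 6 genes in ABL against CONT for each reticular-like sub-cluster, in CPM, with a line of equality. All 9 points of Alpl and of Slc20a2 lie above the line and all 9 of Phex below it.

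Within reticular-like cells, those with and without an Alpl UMI after thinning were set side by side. Cxcl12 and Adipoq helped to name this class, so finding them in its cells is no result. Among the 128 such cells of ABL replicate 1, Cxcl12 was found in 100% and Adipoq in 83.6%, against 100% and 90.6% of the 286 others. In ABL replicate 2 (83 and 266 cells) the shares were 96.4% and 66.3% against 98.1% and 84.2%. Slc20a2 was found more often beside Alpl in both ABL libraries, 14.8% against 6.29% and 10.8% against 0.752%, and so was the osteoblast transcription factor Sp7, 16.4% against 6.64% and 13.3% against 3.76%. Phex was found less often beside Alpl in all 4 libraries, with 16.4% against 24.1% and 15.7% against 19.9% in ABL. These are shares of cells within a library and carry no test.

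Over all mesenchymal cells together, Smpd3, Alpl and Ank were higher in ABL, and of these only Smpd3 kept its call when 9 or 46 doubtful cells of replicate 1 were left out. Smpd3 was 17.9 CPM (CONT) and 158 CPM (ABL) in replicate 1, then 2.17 and 58.8 CPM in replicate 2 (log2 3.91 ± 0.54 SE, edgeR adjusted p = 0.000985), in a fit that called 3 of 7 members higher and 0 lower at a background of 2.27% of 13691 genes higher and 1.04% lower. Both ABL values lay above both CONT values. Osteoblast-like cells numbered 9 (CONT) and 58 (ABL) in replicate 1, then 0 and 48 in replicate 2, and chondrocyte-like cells 8 and 15, then 0 and 75, so the number of cells that carry the gene moved with its level and their part in it was not tested. Alpl was 92.7 and 433 CPM, then 38.1 and 202 CPM (log2 2.29 ± 0.56 SE, edgeR adjusted p = 0.0285), and Ank was 21.2 and 47.9 CPM, then 16.7 and 104 CPM (log2 1.89 ± 0.49 SE, edgeR adjusted p = 0.0363). Neither gene overlapped between the groups. Over all genes tested, 64.6% went the same way in both replicates, and the share without overlap, as for these 3, was not counted. A cluster of 27 cells of CONT replicate 2 that scored equally for osteoblast and Schwann cell markers is not in these sums. With it added (an alternative chosen after seeing the data), the log2 fold changes were 3.38 for Smpd3 (edgeR adjusted p = 0.000225), 2.17 for Alpl (edgeR adjusted p = 0.0234) and 1.83 for Ank (edgeR adjusted p = 0.0247).

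The calls of Alpl and Ank over all mesenchymal cells were lost when few cells were left out, although their fold changes hardly moved. The linear algebra behind the clustering rounds differently on different processors, and 1 such rounding put 9 pericyte-like cells of ABL replicate 1, of 679, outside the mesenchyme. Without them the same edgeR fit called 27 genes higher and 5 lower, in place of 311 and 143, Alpl had an adjusted p of 0.0968 and Ank one of 0.135 in edgeR, and Smpd3 stayed under the threshold (edgeR adjusted p = 0.0371). The log2 fold changes were then 2.30 for Alpl, 1.90 for Ank and 3.92 for Smpd3, and the fit has 1 residual degree of freedom. Leaving out instead the 46 cells of the cluster led by B cell genes gave 136 genes higher and 44 lower, with edgeR adjusted p-values of 0.0633 for Alpl (log2 2.25), 0.0841 for Ank (log2 1.88) and 0.0105 for Smpd3 (log2 3.89). In DESeq2, with all cells, Alpl and Ank passed (adjusted p = 0.000150 and 0.0211). After subtraction of free RNA none of the 3 passed the edgeR test (Smpd3 adjusted p = 0.0711).

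Phex was 163 and 115.5 CPM in replicate 1 and 219.6 and 26.8 CPM in replicate 2 (CONT, then ABL), without passing the test over all mesenchymal cells (log2 -1.80 ± 0.63 SE, edgeR adjusted p = 0.138), and in male cells alone it passed (log2 -2.95, edgeR adjusted p = 0.00029). Slc20a2, called in reticular-like cells, was 17.2 and 54.1 CPM, then 10.6 and 11.2 CPM, so its difference was visible in replicate 1 alone. Slc20a1 (log2 0.57, edgeR adjusted p = 0.625) and Enpp1 (log2 0.22, edgeR adjusted p = 0.903) did not pass.

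Osteoblast-like cells could not be compared, since CONT replicate 2 held none, and with the clustering used here it held no pre-osteoblast-like cell either. In replicate 1, pre-osteoblast-like cells had 19.3 CPM (6.28 to 45.1) of Enpp1 in CONT and 144 CPM (116 to 177) in ABL, and 34.8 CPM (15.9 to 66.0) and 101 CPM (77.9 to 129) of Ank. Both pyrophosphate genes were thus higher in the ABL library beyond counting error, in 42 and 79 cells of a single replicate. With 3 of the alternative clusterings every library held pre-osteoblast-like cells. There Enpp1 was higher in ABL in each fit while Alpl did not pass in any. Smpd3 was called as well, but it had 0 CPM in CONT replicate 2 and 7.25 to 8.84 CPM in CONT replicate 1. It passed the filter on low counts through its ABL counts, so its p-values in these fits are not read as a result. With markers left out of the clustering the class had 43, 77, 18 and 28 cells (CONT and ABL of the first replicate, then of the second), and Enpp1 was 30.1 and 149 CPM, then 53.4 and 147 CPM (log2 1.76 ± 0.48 SE, edgeR adjusted p = 0.0177). Smpd3 was 7.53 and 47.9 CPM, then 0 and 66.5 CPM (edgeR adjusted p = 0.00128), and Alpl was 986 and 1258 CPM, then 590.2 and 746 CPM (log2 0.27 ± 0.60 SE, edgeR adjusted p = 0.895). In that fit 2 of 6 members tested, Smpd3 among them, were higher and 0 lower, at a background of 0.679% of 4270 genes higher and 1.59% lower. With the stricter cell filter (34, 68, 15 and 29 cells) the edgeR adjusted p was 0.00610 for Enpp1 and 0.000700 for Smpd3, at a background of 0.659% of genes higher and 1.95% lower. With the study's filter alone (49, 83, 16 and 38 cells) it was 0.0474 and 0.0131, at a background of 0.642% higher and 1.28% lower. Ank did not pass in these fits, and in replicate 2 its levels were close, 143 CPM in CONT and 175 CPM in ABL with markers left out. Whether these changes differed from those in reticular-like cells was not tested.

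Of the other classes, pericyte-like and periosteal-like cells were found in every library. The 11 pericyte-like cells of CONT replicate 2 had no UMI of 5 of the 6 pericyte markers (Acta2, Myh11, Rgs5, Kcnj8 and Mcam), so the name does not hold for them and no difference in this class is reported. All 6 markers were lower in ABL replicate 1 than in CONT replicate 1, with 1507 against 7729 CPM of Rgs5 and 71.4 against 468 CPM of Myh11. The name is thus weaker there. It is weak in ABL replicate 2 as well, where the 136 cells had 252 CPM of Rgs5 and 73.1 CPM of Myh11. Periosteal-like cells numbered 39, 24, 26 and 504. There 0 of 5 members tested passed the edgeR test, at a background of 0% of 4929 genes higher and 0% lower (DESeq2 called 10 and 11 genes, and 260 genes had an unadjusted p under 0.05 in edgeR without the block). Phex came nearest, with 52.7 and 27.6 CPM (CONT, ABL) in replicate 1, then 122 and 5.41 CPM in replicate 2 (log2 -3.43 ± 0.85 SE, edgeR adjusted p = 0.556). With the arithmetic rounded in 2 other ways that shifted a few cells, Phex passed there (edgeR adjusted p = 4.66e-05 and 9.14e-06), so the call in this small class depended on the rounding. The periosteal markers also differed between the 26 and 504 cells of replicate 2 (CONT, then ABL), with 154 and 1604 CPM of Clec3b, 192 and 2156 CPM of Igfbp6, 108 and 1020 CPM of Dpt and 1061 and 123 CPM of Fbln1. Cells of different kinds may thus carry the name in the 2 libraries, and the part of this in the Phex values was not tested.

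Related genes of the pathway were read from 4 further lists in reticular-like cells. Of mineral-binding matrix proteins, their kinase and the vesicle annexins, 9 of 11 were tested, 3 were higher in ABL and 0 lower, with a median log2 fold change of 0.79 against -0.01 for all genes. The 3 were Spp1 (osteopontin, an inhibitor of crystal growth), Mgp (matrix Gla protein, another inhibitor) and Fam20c, the kinase that phosphorylates such proteins. Spp1 was 135 CPM (CONT) and 1236 CPM (ABL) in replicate 1, then 173 and 4029 CPM in replicate 2 (log2 3.77, edgeR adjusted p = 2.34e-12), and Mgp was 189 and 481 CPM, then 73.3 and 606 CPM (log2 2.10, edgeR adjusted p = 6.04e-07). Fam20c had low levels, 4.16 and 7.87 CPM, then 3.29 and 14.2 CPM (log2 1.49, edgeR adjusted p = 0.0103).

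Among 11 tested of 15 phosphate and pyrophosphate genes, only Acp5, the tartrate-resistant acid phosphatase of osteoclasts, was called, higher in ABL (5.49 and 23.0 CPM, then 0.946 and 6.41 CPM, log2 2.24, edgeR adjusted p = 3.36e-06), and the list median was 0.20. Acp5 is also on the osteoclast marker list, whose other 2 tested genes were not called. With only 0.946 CPM in CONT replicate 2, Acp5 passed the filter on low counts through its ABL counts. Its p-value is therefore not read as a result. Among 11 tested of 13 genes of phosphocholine and sphingomyelin metabolism, only Smpd2, another neutral sphingomyelinase, was called higher (19.8 and 34.9 CPM, then 11.8 and 26.7 CPM, log2 0.90, edgeR adjusted p = 0.0152), at a list median of -0.10. Of the phosphate hormones and their receptors, 3 of 6 were tested, with a median of -0.20, and Pth1r, the parathyroid hormone receptor, was higher in ABL (88.6 and 207 CPM, then 76.8 and 147 CPM, log2 0.98, edgeR adjusted p = 0.00946). Pth1r is also on the pre-osteoblast marker list.

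Over 18 sums of a library and a mesenchymal class with at least 20 cells, the pattern of each member was compared with that of 5763 genes. These sums share libraries and depth, and the correlations of log2(CPM + 10) are given as a description. Alpl was most like Pth1r (r = 0.91), Sp7 (0.89) and Maged1 (0.87), of which Pth1r and Sp7 are pre-osteoblast markers that helped to name the classes. Smpd3 was most like Slc13a5 (0.92), Ifitm5 (0.92) and Itga10 (0.90), and Slc20a2 most like Hey1 (0.95), Ppp1cc (0.89) and Prpsap1 (0.89). Phex was most like Mical3 (0.92), Mtss1 (0.90) and Mxd1 (0.90). Enpp1 was most like Sgcd (0.85), Alg14 (0.84) and Cdc42se1 (0.84), Ank like Nfatc2 (0.89), Pgam1 (0.86) and Col6a3 (0.85), and Slc20a1 like Pacsin2 (0.85), Ywhaq (0.79) and Hspe1 (0.79). Phospho1 had 19 UMIs in these sums, so its nearest genes, Golga2 (0.81), Smpd3 (0.78) and Ifitm5 (0.76), rest on little. Among the members, Phex ran against Enpp1 (r = -0.70), Ank (-0.74) and the phosphate transporter Slc20a1 (-0.74). Ank had r = 0.57 to Enpp1 and 0.59 to Slc20a1, so neither pattern was particular to the pyrophosphate genes.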

How the data were processed

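Per the labels and the study's methods, the authors sequenced sorted tdTomato+ cells on 10X Chromium and made UMI counts with Cell Ranger on mm10. The deposited files hold raw counts per gene and barcode, with no normalization. From these counts, barcodes were kept as cells above a UMI floor set per library (2642 to 4036) if they held 500 genes or more with up to 20% of UMIs from mitochondria (version 2), or 1000 genes with up to 15% (version 3). The 2 libraries of a replicate were integrated and clustered with Seurat 5.3.0 (2000 variable genes, 30 components, resolution 0.8), with the 8 genes and their pathway lists left out, and clusters were named from marker lists. Doublets called (78, 8, 2 and 25 cells) were removed only as an alternative. The naming rules were set after the data were seen, and the members and lists were chosen with earlier results of these data known.

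Levels are summed UMIs per 1000000 (CPM), with exact Poisson intervals at 95% and a floor of 3 counts. CONT and ABL were compared on sums per library and class with at least 10 cells, by the edgeR 4.0.16 quasi-likelihood test (R 4.3.3, TMM, filterByExpr, Benjamini-Hochberg over all genes, threshold 0.05). Replicate was a block because its number marks the chemistry in the labels. Deviations of same-numbered libraries correlated at 0.731 (reticular-like), 0.382 (all mesenchymal) and 0.329 (periosteal-like), with 1 residual degree of freedom. Named genes were all members, list genes past the threshold in reticular-like cells, and the 3 genes most like each member. Counts were simulated for reticular-like cells with a single spread for all genes and a replicate effect. On them the test recovered 177 of 200 genes changed by a log2 of 2, and 4.32% of its calls were false. The simulation held no difference in sex, free RNA or cell make-up between CONT and ABL, so it does not measure errors on the real libraries. Clustering was fixed to 1 processor kernel of the matrix library. Alternatives were DESeq2 1.42.0, other normalization, filters, clustering and cell sets, libraries left out and, added after seeing the data, other kernels and the cell sets named in the text.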

Additional observations from a re-analysis of the deposited data

Results flagged for a closer look

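Empty droplets, used only for the subtraction of free RNA, held more Alpl, Smpd3 and Ank in both ABL libraries than in either CONT library. These members were picked because their intervals lay apart between the groups. How many of the 28006 features did so was not counted. Alpl stood at 217 and 219 CPM in ABL replicates 1 and 2 against 30.4 and 37.7 CPM in CONT. Smpd3 stood at 42.5 and 91.9 CPM against 3.97 and 2.82 CPM, and Ank at 36.2 and 59.2 CPM against 15.5 and 19.0 CPM. RNA of the 3 genes was thus also higher outside cells in ABL, which other genes may share. The part of free RNA in the levels of single classes was not tested beyond its subtraction.

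A cluster of 27 cells in CONT replicate 2 was left out of the mesenchymal sums because it scored equally for osteoblast and Schwann cell markers. It held members above the floor of 3 counts (7.35 CPM). Those given were picked because their intervals lay above those of blood cells of that library. It had 507 CPM of Alpl, 164 CPM of Smpd3, 115 CPM of Ank, 46.5 CPM of Slc20a2, 41.6 CPM of Enpp1 and 39.2 CPM of Phex. Alpl and Smpd3 there were far above the 34.9 and 1.89 CPM of reticular-like cells of the same library.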

How the results depend on the processing

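Of 24 alternatives with a test, reticular-like Alpl was called higher in 19, Slc20a2 higher in 18 and Phex lower in 14. Adding the unnamed cluster of CONT replicate 2, or leaving out the 9 or the 46 cells, does not touch the reticular-like sums. These settings repeat the main fit there, and so does clustering without integration over all mesenchymal cells. The counts called therefore include repeats. Over all mesenchymal cells Smpd3 was called in 18, Alpl in 11 and Ank in 9. Without the replicate block 0 members and 0 genes were called either way in reticular-like and all mesenchymal cells, and leaving out 1 library in unblocked fits, where the lone library is assumed to vary like the others, called 0 members in both. In reticular-like cells those fits called 0 to 37 genes higher and 0 to 53 lower. There the member called lower fell to 0 in DESeq2, without TMM, without integration, in male cells and with free RNA subtracted, and members higher fell to 1 in male cells. Genes higher and lower numbered 83 and 67 in DESeq2, 156 and 124 without integration, and 27 and 10 in male cells. With free RNA subtracted the log2 fold changes of Ank and Slc20a1 turned to -0.13 and -0.016, and Slc20a1 ranged from -0.55 to 0.78 with a library or replicate left out.

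Over all mesenchymal cells, members higher numbered 1 with the study's filter alone, at resolution 0.4, with markers left out of the clustering, with no margin in naming, in tdTomato cells, and without the 9 cells that another rounding moved or the 46 cells of the cluster led by B cell genes (both chosen after seeing the data), and 0 with free RNA subtracted. Without the count filter and in male cells 1 member was lower. Genes higher and lower numbered 666 and 365 without the count filter, 183 and 65 with the study's filter alone, 585 and 346 with the stricter filter, 122 and 37 at resolution 0.4, 134 and 38 with markers left out of the clustering, 30 and 7 with no margin in naming, 64 and 10 in tdTomato cells, 514 and 476 in male cells, 8 and 1 with free RNA subtracted, 27 and 5 without the 9 cells, and 136 and 44 without the 46 cells. Genes lower numbered 84 at resolution 1.5 and 79 with doublets removed. With a library left out, 0 to 39 genes were higher and 0 to 2 lower. With a library or replicate left out Enpp1 ranged from -0.70 to 1.03, Slc20a2 from -0.22 to 1.87 and Slc20a1 from -0.03 to 1.25. Other rounding of the arithmetic (Sandybridge and Nehalem kernels, chosen after seeing the data) kept the number of members called in both of these sets of cells.

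In periosteal-like cells, genes higher and lower numbered 10 and 11 in DESeq2, 4 and 4 without TMM, 89 and 111 without the count filter, 8 and 23 with the study's filter alone, 67 and 146 without integration, 3 and 4 with doublets removed, 21 and 40 in tdTomato cells, and 49 and 93, then 58 and 126, under the Sandybridge and Nehalem kernels. Phex was the 1 member called lower without the count filter, with the study's filter alone, without integration, in tdTomato cells and under both kernels. With a library left out, 0 to 115 genes were higher, 0 to 87 lower, and 0 to 1 member was lower (Phex without CONT replicate 1, edgeR adjusted p = 0.00185, and without ABL replicate 1, edgeR adjusted p = 0.0117). With a library or replicate left out the log2 fold changes ranged from -0.93 to 1.02 for Alpl, from -0.65 to 1.33 for Enpp1, from -0.27 to 1.38 for Ank and from -0.88 to 2.05 for Slc20a1. The other clusterings, the stricter filter and male cells left too few periosteal-like cells to be fitted. A pseudocount of 1 CPM kept 15 of the 24 genes most like a member. The cause of these changes was not tested. The calls of Alpl and Ank over all mesenchymal cells and of Phex in periosteal-like cells moved with small changes in which cells were counted. Depth limits Phospho1 everywhere and Smpd3 in reticular-like cells.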
